A study of Mus musculus with 48 samples.

Results

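The genes described here encode the proteins of the cytosolic ribosome in the mouse pars tuberalis, the thin layer of the pituitary stalk that reads the nightly melatonin signal. They were chosen by name: symbols that begin with Rpl or Rps followed by a digit, together with Rplp0, Rplp1, Rplp2 and Rpsa, without the Rps6k kinases and without pseudogenes. A probe set is the group of short probes that reports one transcript, and only probe sets assigned to 1 symbol were used. Where a gene had several, the one with the highest mean over all arrays stood for it. This gave 50 genes of 18193 measured: 22 for proteins of the large (60S) subunit, 21 for proteins of the small (40S) subunit, 6 paralogs (Rpl22l1, Rpl39l, Rpl3l, Rpl7l1, Rps27l and Rps4l) and Rps19bp1, which encodes a protein that binds Rps19. A further 31 ribosomal protein symbols, Rplp1 among them, occurred only in probe sets shared with other symbols and have no value of their own here.

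The study followed the pars tuberalis through a change from short to long days on 48 Affymetrix arrays, in 4 lighting regimes at 6 zeitgeber times (ZT, hours from lights on) 4 h apart, with 2 arrays per group. All mice were CBA/N males that first spent 3 weeks in short days of 8 h light at 400 lux. The short-day group then stayed in that regime and the long-day group received 16 h light, both for 2 weeks, and both were sampled at 8 weeks of age. The other regimes were sampled on the first long day at 6 weeks of age: in the advance regime light came on 8 h early, from ZT16 of the short-day cycle, and in the delay regime darkness came 8 h late, from ZT8. ZT of the first-day regimes was counted on the short-day cycle, that of the long-day group from its own lights on. Age and regime therefore cannot be told apart where a first-day regime is set against short days. Each array held tissue punched from 0.5 mm brain slices and pooled from 25 mice. The whole procedure was done again for the second array, and beyond that the labels do not describe the replicates, so p-values measure the spread between these pools.

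A ribosome carries one copy of nearly all of its proteins, so cells make them in matched amounts, together with ribosomal RNA. Much of that matching happens in translation. Many ribosomal protein mRNAs start with a C followed by a run of pyrimidines, the 5′ terminal oligopyrimidine tract, through which mTOR signalling sets how much of the mRNA is translated. The mRNAs themselves are abundant and long-lived, and a microarray reads their amount, not their translation.

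Start-site sequences were compared for the 44 genes with an entry in the RefSeq promoter table (GRCm38.p6, 250 bases before to 50 after the annotated start). An annotated start that is a C followed by at least 4 pyrimidines was present in 8 of the 44 genes (18.2%) and in 3.01% of 27025 genes in that table. These 8 are shown because they carry the tract at the annotated base, with 20 bases before the start and 15 from the start on, sense strand, and with the pyrimidine run from the start in capitals.
Rps10: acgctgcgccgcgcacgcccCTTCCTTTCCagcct
Rps18: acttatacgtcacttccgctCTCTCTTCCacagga
Rps27: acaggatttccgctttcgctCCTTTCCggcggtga
Rps6: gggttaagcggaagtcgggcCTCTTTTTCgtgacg
Rpl14: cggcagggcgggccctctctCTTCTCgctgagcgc
Rpl35: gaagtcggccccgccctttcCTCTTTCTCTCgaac
Rpl38: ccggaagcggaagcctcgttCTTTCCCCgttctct
Rplp2: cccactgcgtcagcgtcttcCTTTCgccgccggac
Rpl4 and Rpsa, which changed with the regime without a tract at the annotated start, are given over the same window. Rpl4 has a pyrimidine run that ends a few bases before its annotated start, so it is no clean contrast.
Rpl4: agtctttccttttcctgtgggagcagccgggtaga
Rpsa: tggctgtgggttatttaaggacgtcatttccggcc
The stretches lie for Rps10 at chr17:27635230-27635264 (minus strand), Rps18 at chr17:33955651-33955685 (minus strand), Rps27 at chr3:90213634-90213668 (minus strand), Rps6 at chr4:86857353-86857387 (minus strand). They lie for Rpl14 at chr9:120571497-120571531 (plus strand), Rpl35 at chr2:39005117-39005151 (minus strand), Rpl38 at chr11:114668560-114668594 (plus strand), Rplp2 at chr7:141447631-141447665 (plus strand). The stretch of Rpl4 is at chr9:64173367-64173401 (plus strand) and that of Rpsa at chr9:120127746-120127780 (plus strand). Each spans the first bases of the annotated transcript and the end of its upstream sequence.

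Other short features of these promoters were counted on both strands over the same 300 bases. The letters CCGGAAG, the core bound by ETS-family factors, were in 21 of 44 (47.7%) against 9.93% of all genes in the table, and GGGCGG, the GC box, in 26 (59.1%) against 38.2%. GCCATCT, a core bound by YY1, was in 6 (13.6%) against 7.31%, TATAAA, the TATA box, in 6 (13.6%) against 15.7%, TGACGT, from the cAMP response element, in 6 (13.6%) against 8.37%, and CACGTG, the E-box of clock and Myc factors, in 4 (9.09%) against 8.09%. Each word was counted on its own, so matches to different words may share bases. A run of at least 8 pyrimidines on the sense strand between 10 bases before and 40 after the start was present in 27 (61.4%) against 19.9%. Of the 8 genes with the tract at the start, 5 fell in long days and 6 in the delay regime, with median log2 changes of -0.13 and -0.21. Of the 36 without it, 15 fell in long days and 22 in the delay regime, with medians of -0.05 and -0.14. The 36 include Rps19bp1, which is no ribosomal protein, and Rpl39l, Rpl3l and Rps16, whose means lay below the lower quartile of all genes. None of these genes is among the 8, so the groups also differ in make-up. The grouping depends on the annotated base. Rpl27a and Rpl7a, counted as without the tract, start with runs of 16 and 7 pyrimidines that begin with T. These groups of genes were not tested against each other.

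Array quality is given here because it moved with the regime. All values are log2 levels normalised across arrays. The array holds control probe sets at the 3′ and 5′ ends of the actin and GAPDH transcripts, and their difference is used as a measure of RNA integrity and of how far copying reached. The actin difference was 1.90 ± 0.12 (SD, n = 12 arrays) in short days, 1.65 ± 0.12 in long days, 1.69 ± 0.09 in the advance regime and 1.85 ± 0.13 in the delay regime. By an exact two-sided permutation test with arrays exchanged within each ZT, adjusted by Benjamini-Hochberg over 8 tests, it was 0.24 lower in long than in short days (p = 4.29e-05, the smallest this design can give, and adjusted p = 0.000172), 0.20 lower in advance than in short days (adjusted p = 0.000457) and 0.16 lower in advance than in delay (adjusted p = 0.00412). Delay and short days differed by -0.05 (adjusted p = 0.422). Read as 3′ minus middle, the actin difference ran in another order, with 0.97 ± 0.07 in short days, 1.02 ± 0.09 in long days, 1.10 ± 0.06 in advance and 1.18 ± 0.08 in delay. The GAPDH 3′ minus 5′ difference was 2.28 ± 0.13 in short days, 2.14 ± 0.16 in long days, 2.00 ± 0.13 in advance and 1.92 ± 0.10 in delay. By the same exact permutation test it was lower than in short days in advance (adjusted p = 0.00103) and in delay (adjusted p = 0.000172), while long minus short days was -0.14 (adjusted p = 0.0578) and advance minus delay 0.07 (adjusted p = 0.208). The median gene lay 0.07 lower in long than in short days, 0.04 lower in advance and 0.01 lower in delay.

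The ribosomal protein genes stood highest in short days on the deposited scale and when arrays were centred on their median gene (mean deviation 0.07 in short days, 0.06 in long days, -0.06 in advance and -0.08 in delay), but not relative to mitochondrial ribosomal protein genes (-0.03, 0.02, 0.02 and -0.02). On the deposited scale, as the mean over the 50 genes of each gene's deviation from its own 48-array mean, arrays lay at 0.10 ± 0.12 (SD, n = 12; -0.09 to 0.33) in short days, at 0.02 ± 0.06 (-0.14 to 0.10) in long days, at -0.06 ± 0.04 (-0.12 to -0.01) in advance and at -0.06 ± 0.06 (-0.17 to 0.03) in delay. The short-day arrays were the most spread, and their ranges overlapped those of every other regime. By regime mean, 30 of the 50 genes were highest in short days, 11 in long days, 4 in advance and 5 in delay. Over all genes the shares highest in these regimes were 33%, 17.2%, 19.3% and 30.4%. The lowest regime was delay for 24 genes, advance for 17, long days for 5 and short days for 4, and over all genes it was delay for 15.9%, advance for 22.2%, long days for 34.7% and short days for 27.2%. In bulk tissue, fewer cells of a type and less RNA per cell cannot be told apart.

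**Figure D1:**
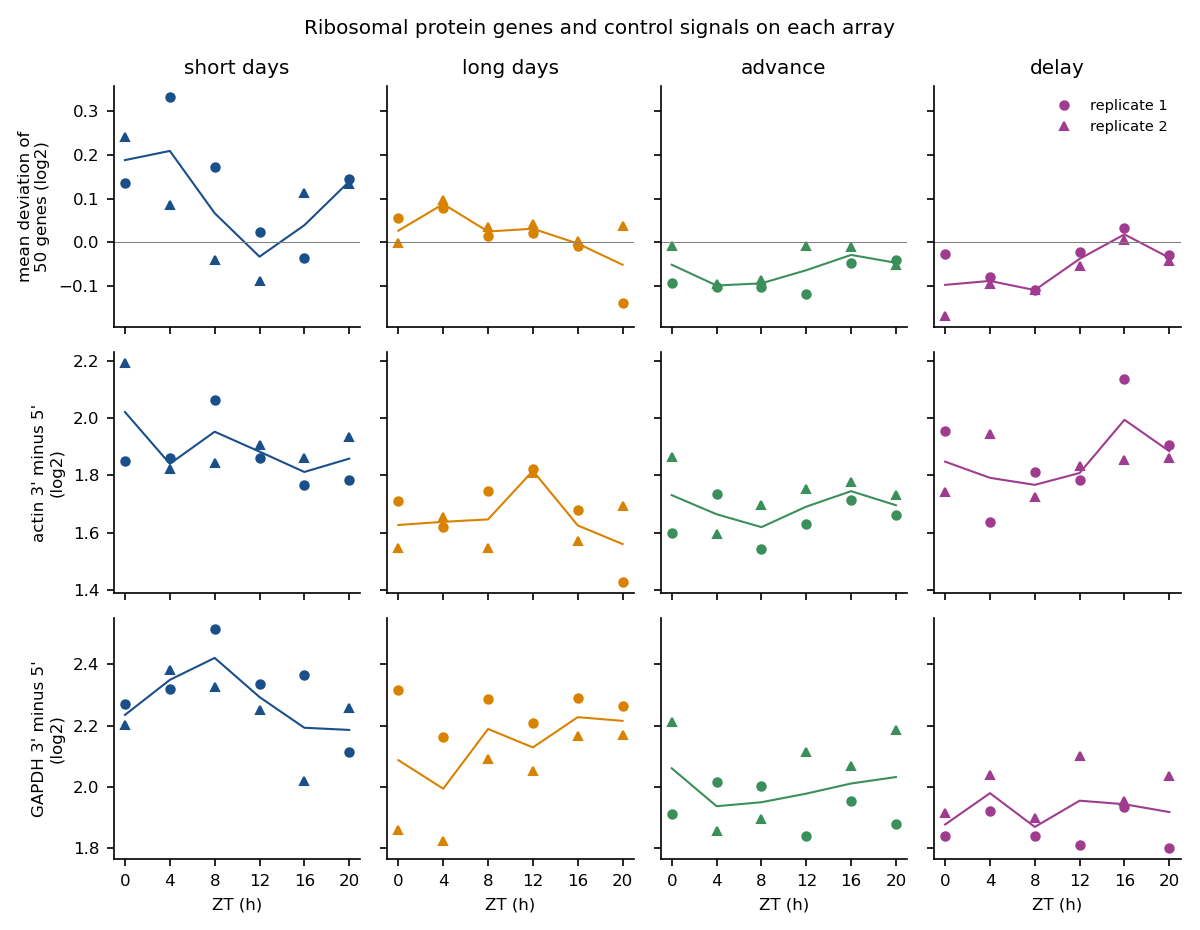
Top row: mean log2 deviation of the 50 ribosomal protein genes from their 48-array means for every array, by ZT in hours, with one panel per lighting regime; the rows below show the actin and GAPDH 3′ minus 5′ log2 differences of the same arrays. Short-day arrays reach 0.33 at the early time points, advance arrays stay between -0.12 and -0.01, and the actin difference is lower in long days and advance than in short days and delay.

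The contrast of long with short days asks what 2 weeks of long photoperiod did. On the deposited scale most ribosomal protein genes that moved were lower in long days. With arrays centred on their median gene 10 rose and 10 fell, where 28.68% of all genes rose and 19.53% fell. Relative to mitochondrial ribosomal protein genes 22 rose and 8 fell, where 42.25% of all genes rose and 13.95% fell. On the deposited scale 23 of 50 fell and 4 rose by limma's moderated test at a Benjamini-Hochberg adjusted p of 0.05 over all 18193 genes, where 46.7% of all genes passed, 17.6% higher and 29.1% lower. The median log2 change was -0.08, against -0.03 over all genes. In the 60S subunit 13 of 22 genes fell and 1 rose (median -0.12), and in the 40S subunit 8 of 21 fell and 2 rose (median -0.02). With the actin difference as a covariate 6 fell and 3 rose, where 16.2% of all genes were lower. Without ZT0 and ZT4, the times at which short-day arrays stood highest, 9 fell and 4 rose. The share of all genes without these times is not given, so this count is not read as a result about the 50 genes.

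Rps10, a 40S protein at the entry side of the mRNA channel, fell furthest. Its log2 level ran from 11.56 over a median of 11.98 to 12.38 in the 12 short-day arrays and from 11.15 over 11.43 to 11.52 in the 12 long-day arrays. All long-day arrays lay below all short-day arrays. The change was -0.53 ± 0.05 (SE; 0.69-fold, limma adjusted p = 5.70e-10), below 0 at 6 of 6 time points, and it was -0.35 ± 0.06 with the actin covariate (limma adjusted p = 4.66e-05). Its start carries the 10-base tract printed above, CTTCCTTTCC.

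Rpl14, a 60S surface protein, was the only other gene whose arrays did not overlap between these regimes. It ran from 10.05 over 10.17 to 10.61 in short days and from 9.70 over 9.95 to 10.01 in long days, a change of -0.28 ± 0.04 (limma adjusted p = 4.12e-07). Separation of the 12 from the 12 arrays was seen in 5.32% of all genes, and in 2 of the 50.

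Further falls were of genes for both subunits, with overlapping arrays. Rpl37a, a zinc-binding 60S protein, ran from 11.77 over 12.20 to 12.60 in short days and from 11.28 over 11.74 to 11.96 in long days (-0.46 ± 0.06, limma adjusted p = 1.37e-07). Rpl19, a 60S protein that reaches towards the 40S subunit, ran from 12.76 over 13.13 to 13.55 and from 12.65 over 12.78 to 12.93 (-0.36 ± 0.05, adjusted p = 9.16e-08). Rps24, a 40S protein needed for processing of 18S ribosomal RNA, ran from 11.79 over 12.08 to 12.38 and from 11.44 over 11.75 to 11.85 (-0.30 ± 0.04, adjusted p = 1.46e-07). Of the 12 long-day arrays, 7 lay below every short-day array for Rpl37a, 5 for Rpl19 and 9 for Rps24. Rpl4 changed by -0.22 ± 0.05 (limma adjusted p = 0.000423), Rpl12, at the base of the P stalk, by -0.18 ± 0.04 (adjusted p = 0.000633), and Rpl37 by -0.14 ± 0.05 (adjusted p = 0.0141), each lower at 6 of 6 time points. With the actin covariate Rpl14, Rpl19, Rpl37a, Rps10, Rps24 and the paralog Rps27l still fell, and Rpl4, Rpl12 and Rpl37 did not pass (limma adjusted p = 0.0833, 0.240 and 0.982).

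Rps19, a 40S protein required for maturation of 18S ribosomal RNA and mutated in Diamond-Blackfan anaemia, went the other way. Its log2 level ran from 13.22 over 13.43 to 13.58 in short days and from 13.50 over 13.72 to 13.94 in long days. The highest short-day arrays reached into the lower end of the long-day range. The change was 0.26 ± 0.04 (limma adjusted p = 3.84e-07), above 0 at 6 of 6 time points, and stayed at 0.26 with the actin covariate (limma adjusted p = 0.000277). Rps6, the 40S protein phosphorylated by S6 kinases, rose by 0.08 ± 0.03 (limma adjusted p = 0.0400) and was at -0.01 with the actin covariate (adjusted p = 0.861). Rpl39, a very short protein in the wall of the exit tunnel, rose by 0.13 ± 0.05 (limma adjusted p = 0.0151), and had 0.12 and an adjusted p of 0.188 with the covariate. Rpl39 is named although one of its 6 time points went below 0.

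The P stalk, which recruits elongation factors to the 60S subunit, and Rpsa, the 40S protein also known as the laminin receptor, differed from each other. Rplp0 was at 0.10 ± 0.05 (limma adjusted p = 0.0931) and Rplp2 at -0.08 ± 0.04 (adjusted p = 0.161), and neither passed. Rpsa fell by 0.22 ± 0.05 on the log2 scale (limma adjusted p = 0.000109), with -0.15 and an adjusted p of 0.0710 when the actin difference was a covariate.

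**Figure D2:**
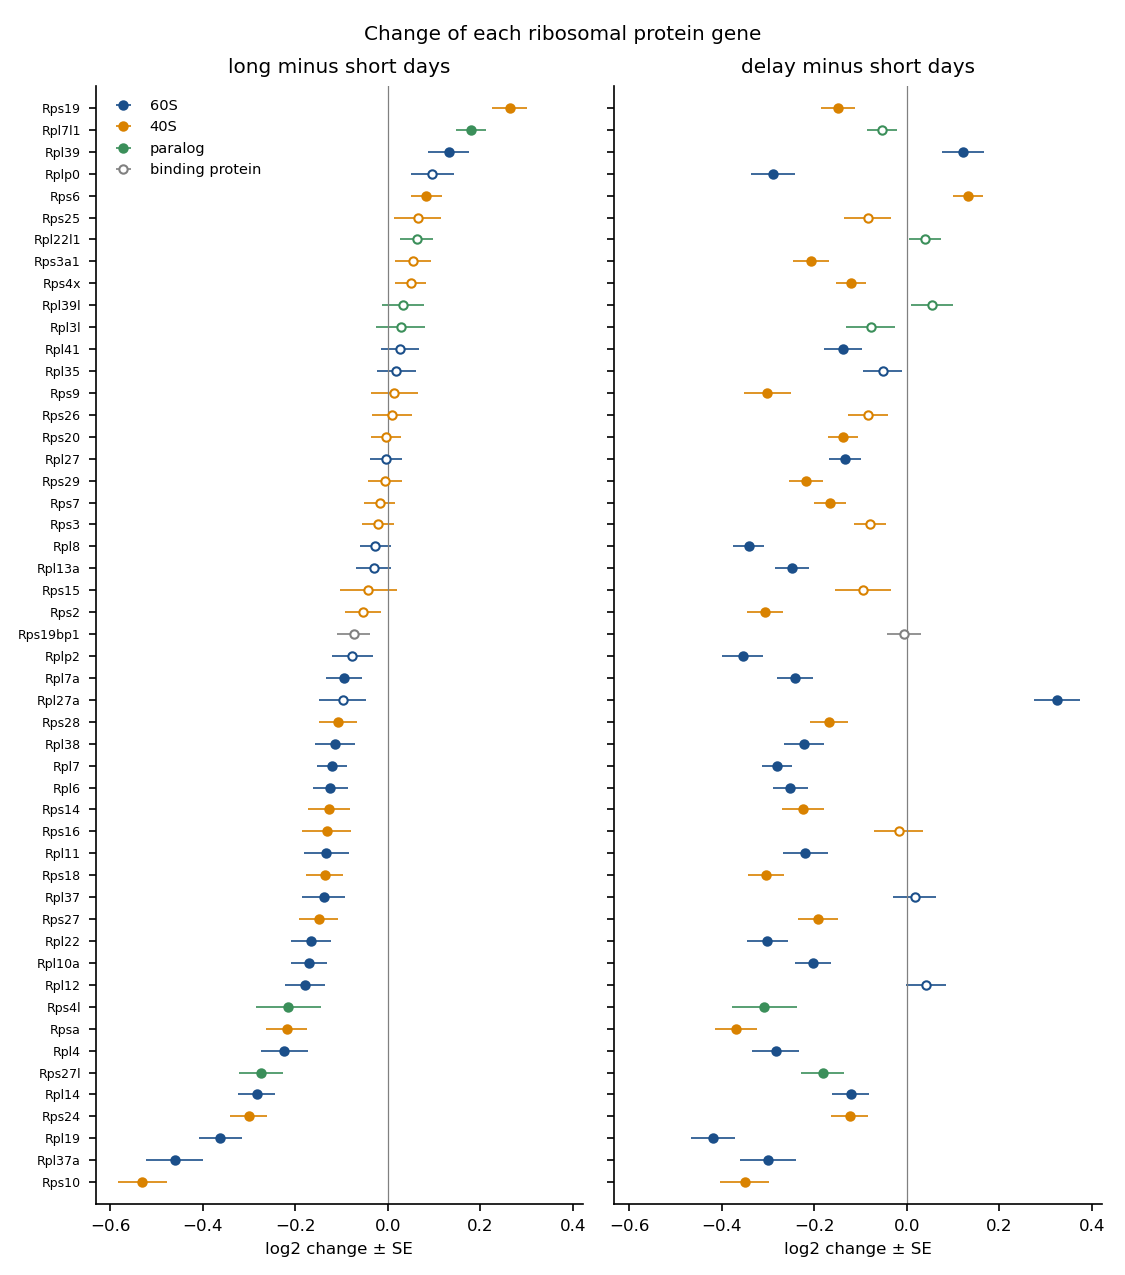
Log2 change with its standard error for each of the 50 genes in long minus short days (left) and delay minus short days (right), in the order of the left panel; filled points passed the adjusted p of 0.05. Rps10 is at the bottom with -0.53 and Rps19 at the top with 0.26 on the left, and 34 points are filled below 0 on the right. Centred on the median gene, the left panel has 10 that rose and 10 that fell, against 28.68% and 19.53% of all genes. Relative to mitochondrial ribosomal protein genes, the right panel has 13 that rose and 17 that fell, against 65.87% and 10.03% of all genes.

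The first-day regimes were set against short days with all ZT averaged. These averages include arrays taken before or at the moment the extra light began, which are read separately further below. The counts here therefore do not isolate the added light, and age differed as well. Most of the genes were lower than in short days in both regimes on the deposited scale. Relative to the mean of the mitochondrial ribosomal protein genes 17 fell and 13 rose in delay, and 10 fell and 24 rose in advance. On that scale 10.03% of all genes fell and 65.87% rose in delay, and 10.45% fell and 69.59% rose in advance. On the deposited scale, against short days, 34 genes fell and 3 rose in the delay regime, where 49.8% of all genes passed (23.8% higher, 26.0% lower), and 31 fell and 1 rose in the advance regime, where 51.4% passed (22.2% higher, 29.3% lower). Both use the same short-day arrays. The median log2 change was -0.18 in delay, where all genes had 0.01, and -0.16 in advance, where all genes had 0.00. By subunit, 17 60S and 15 40S genes fell in delay, and 17 60S and 11 40S genes fell in advance. In delay the same 34 genes fell with the actin covariate and with arrays centred on the median gene, where 25.6% and 25.09% of all genes fell. With the GAPDH covariate 26 fell, and 19 fell without ZT0 and ZT4. In advance 20 fell with the actin covariate and 28 after centring, where 21.9% and 24.82% of all genes fell. With the GAPDH covariate 27 fell, and 21 fell without ZT0 and ZT4. For the GAPDH covariate and for times left out, shares of all genes are not given in this text.

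Rpl8, a 60S protein beside the peptidyl transferase centre, separated delay from short days. It ran from 13.17 over 13.33 to 13.61 in short days, from 12.81 over 13.01 to 13.11 in delay, and from 13.02 over 13.06 to 13.18 in advance. It was the only one of the 50 genes whose delay arrays all lay below the short-day arrays, and 3.92% of all genes were separated in this pair of regimes. The change was -0.34 ± 0.03 in delay (limma adjusted p = 5.72e-10) and -0.26 ± 0.03 in advance (adjusted p = 8.73e-08), with -0.03 ± 0.03 in long days (adjusted p = 0.567).

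Rplp2, an acidic protein of the P stalk, ran from 13.23 over 13.54 to 13.93 in short days, from 12.92 over 13.05 to 13.21 in advance and from 12.995 over 13.14 to 13.29 in delay. The advance arrays lay below every short-day array and the delay arrays reached just into their range. It changed by -0.44 ± 0.04 in advance (0.74-fold, limma adjusted p = 5.94e-10) and by -0.36 ± 0.04 in delay (adjusted p = 5.53e-08). Rplp0 followed with -0.25 ± 0.05 in advance (adjusted p = 2.54e-05) and -0.29 ± 0.05 in delay (adjusted p = 4.09e-06).

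Rpsa ran from 13.18 over 13.59 to 13.91 in short days, from 13.06 over 13.14 to 13.25 in advance and from 13.0 over 13.16 to 13.31 in delay, and 8 advance and 6 delay arrays lay below every short-day array. It changed by -0.39 ± 0.05 in advance and by -0.37 ± 0.05 in delay (limma adjusted p = 6.43e-09 and 2.97e-08). Rpl19 ran from 12.60 over 12.70 to 12.85 in advance and from 12.60 over 12.70 to 12.87 in delay, where 9 advance and 7 delay arrays lay below every short-day array, with changes of -0.43 ± 0.05 and -0.42 ± 0.05 (limma adjusted p = 2.77e-09 and 7.64e-09). Advance minus delay was -0.02 ± 0.05 for Rpsa and -0.01 ± 0.05 for Rpl19 (limma adjusted p = 0.804 and 0.927).

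Rps10 and Rpl14 were lower in advance than in delay. Rps10 ran from 11.23 over 11.29 to 11.46 in advance, below every short-day array, and from 11.40 over 11.57 to 11.81 in delay, where 6 of the 12 arrays lay below every short-day array (limma changes from short days -0.63 ± 0.05 and -0.35 ± 0.05). In advance Rpl14 and Rps27, a 40S protein with a tract at its start, were also below all short-day arrays, so that with Rplp2 4 of the 50 genes were separated, as were 7.77% of all genes. Rpl14 changed by -0.33 ± 0.04 in advance and -0.12 ± 0.04 in delay.

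Among the other large falls in delay were Rps2, near the mRNA entry, with -0.31 ± 0.04, and Rps18, in the head of the 40S subunit, with -0.30 ± 0.04. Rps9 and Rpl22 were at -0.30 each and Rpl7 at -0.28, all lower at 6 of 6 time points. Another probe set of Rpl22 went the other way, with 0.16 in delay and 0.24 in advance (limma adjusted p = 0.00192 and 1.12e-05). The other probe sets of Rps9 were at 0.03 and -0.13 in delay (limma adjusted p = 0.707 and 0.0193). In advance they were at 0.01 and -0.01, and neither passed. In advance Rps4l was at -0.47 ± 0.07, Rpl37a at -0.50 ± 0.06, Rpl22 at -0.34, Rps14, on the platform of the 40S subunit, at -0.33, and Rps9 at -0.30. The chosen probe sets of all these genes passed limma's test.

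Rpl27a, a 60S protein, was the largest rise in delay. It ran from 8.73 over 9.11 to 9.34 in short days, from 9.31 over 9.42 to 9.57 in delay, from 9.07 over 9.18 to 9.50 in advance and from 8.64 over 9.01 to 9.26 in long days. Short days and delay overlapped by a narrow margin. It rose by 0.32 ± 0.05 in delay (1.25-fold, limma adjusted p = 1.98e-06), at 6 of 6 time points, and had 0.10 ± 0.05 in advance (adjusted p = 0.105). Its other probe set, dim with a mean of 4.98, was at -0.004 in delay (limma adjusted p = 0.966). Rps6 rose by 0.13 ± 0.03 in delay (limma adjusted p = 0.00124) and had 0.06 in advance (adjusted p = 0.134). Rpl39 rose by 0.12 in delay and by 0.15 in advance (adjusted p = 0.0243 and 0.00467).

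On the deposited scale the lower levels were on average already present in first-day arrays taken before or at the moment the extra light began. These were advance at ZT16 and delay at ZT0, ZT4 and ZT8. The gap was uneven across them. The mean deviation of the ribosomal protein genes was -0.03 in advance at ZT16, where short days had 0.04. In delay it was -0.10 at ZT0, -0.09 at ZT4 and -0.11 at ZT8, where short days had 0.19, 0.21 and 0.07. The gap was thus widest at ZT0 and ZT4, the times at which short-day arrays stood highest, and small at advance ZT16. Relative to mitochondrial ribosomal protein genes the falls did not outnumber the rises, with 12 and 14. On that scale 8.62% of all genes fell and 68.15% rose. Against short-day arrays of the same ZT, 37 genes fell and 2 rose, where 48.8% of all genes passed (21.8% higher, 27.0% lower), and the median log2 change was -0.22 against 0.01 over all genes. Rps10 was at -0.51, Rpl19 at -0.51, Rplp2 at -0.45, Rpsa at -0.44 and Rplp0 at -0.38, while Rpl27a rose by 0.24 and Rps6 by 0.11. By the labels these mice had not yet had the extra light, and their age and weeks in short days differed from those of the short-day mice. Other differences between these arrays are not described by the labels, and the part of any difference in these falls was not tested. With the actin covariate 32 fell and 1 rose, where 24.5% of all genes fell.

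**Figure D3:**
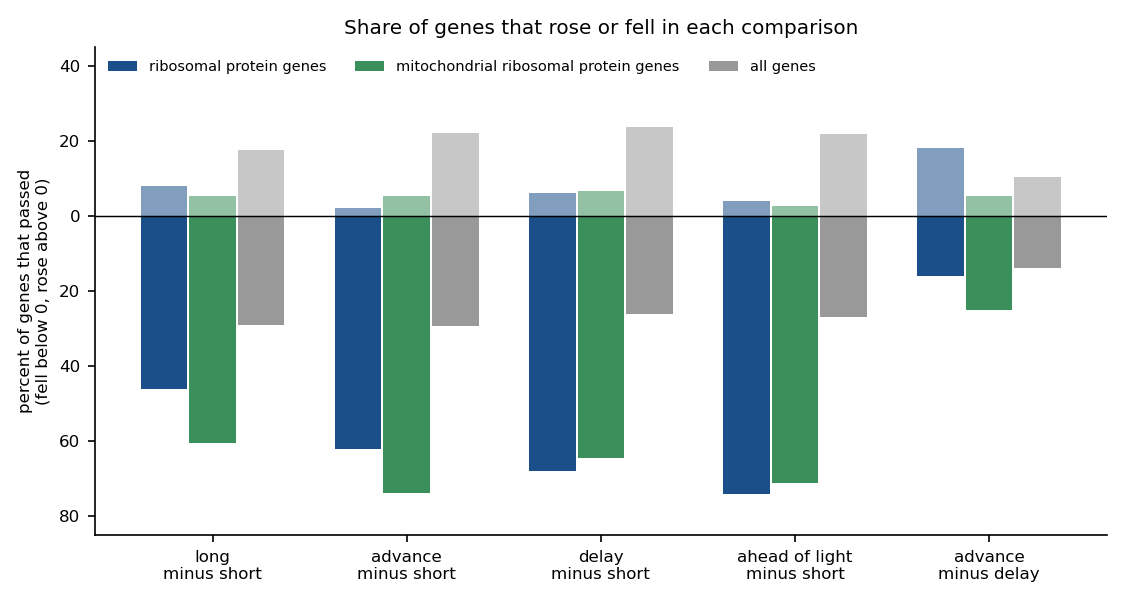
Percent of genes that rose (above 0) or fell (below 0) by limma at an adjusted p of 0.05, in 5 comparisons, for the 50 ribosomal protein genes, 76 mitochondrial ribosomal protein genes and all 18193 genes. In delay 34 of the 50 and 26.0% of all genes fell, and in advance minus delay 9 of the 50 rose and 8 fell. Relative to mitochondrial ribosomal protein genes the 50 have more rises than falls in long days, in advance and ahead of the light. So do all genes, of which 42.25%, 69.59% and 68.15% rose there and 13.95%, 10.45% and 8.62% fell.

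Advance and delay were sampled at 1 age, so age does not separate them. Their contrast averages arrays taken before and after the extra light began, at different ZT in each regime, and the actin difference was 0.16 lower in advance; the part of either in the result was not tested beyond the covariate fit below. Of the 50 genes 9 rose and 8 fell in advance relative to delay, where 24.1% of all genes passed (10.3% higher, 13.8% lower), with a median log2 change of 0.00 against -0.02. Centred on the median gene 16 rose and 7 fell, where 13.83% of all genes rose and 9.3% fell. Without ZT0 and ZT4 3 rose and 6 fell, and the share of all genes without these times is not given. No gene had arrays that did not overlap, and 0.555% of all genes did.

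The rises were small and mostly of 40S genes. Rpl41, a peptide of the 60S subunit among the shortest known proteins, ran from 13.64 over 13.73 to 13.85 in advance and from 13.38 over 13.58 to 13.65 in delay (0.18 ± 0.04, limma adjusted p = 0.00162). Rps2 ran from 14.06 over 14.20 to 14.33 in advance and from 13.89 over 14.03 to 14.13 in delay (0.17 ± 0.04, adjusted p = 0.00200). Most advance arrays of both genes lay above most delay arrays. Rps3 rose by 0.15, Rps3a1 by 0.13, Rps29 by 0.11, Rps19 by 0.11, Rpl7l1 by 0.10, Rps4x by 0.09 and Rpl7 by 0.09. Another probe set of Rps3 fell by 0.14 and another of Rpl7l1 by 0.13 (limma adjusted p = 0.0227 and 0.0411). The remaining probe set was at 0.04 for Rps3 and at -0.05 for Rpl7l1, and neither passed. Leaving out advance ZT12 replicate 2 left 5 rises.

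Of the falls, Rps10 was largest at -0.28 ± 0.05 (limma adjusted p = 0.000231). Rpl27a followed at -0.23 ± 0.05 (adjusted p = 0.00102), then Rpl37 (-0.21), Rpl14 (-0.21), Rpl37a (-0.20), Rps15 (-0.20), Rps24 (-0.15) and Rps19bp1 (-0.12), each at 6 of 6 time points. The dim other probe set of Rpl27a was at -0.125 (limma adjusted p = 0.119). With the actin difference as a covariate, Rpl14, Rpl27a and Rps10 still fell, Rps6 fell as well, and Rpl37, Rpl37a, Rps15, Rps24 and Rps19bp1 did not pass.

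**Figure D4:**
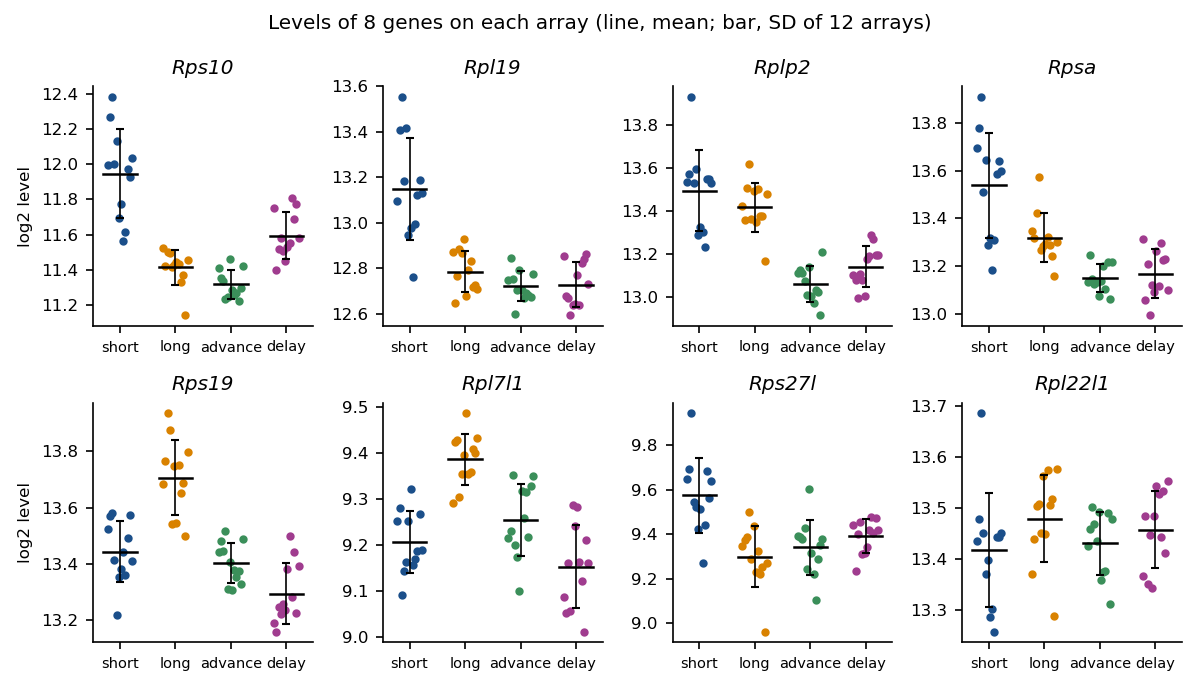
Log2 level of 8 genes on every array in short days, long days, advance and delay (n = 12 arrays each), with the mean and SD. Rps10 has long-day and advance arrays below all short-day arrays, Rps19 and Rpl7l1 are highest in long days, and Rpl22l1 has medians between 13.44 and 13.50 in all 4 regimes.

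Of the 6 paralogs, 2 fell, 1 rose and 3 did not pass in long days. Rps27l, a p53 target closely related to Rps27, ran from 9.27 over 9.56 to 9.94 in short days and from 8.96 over 9.31 to 9.50 in long days. All long-day arrays were below the short-day median, and the change was -0.27 ± 0.05 (limma adjusted p = 9.15e-06), with -0.23 in advance and -0.18 in delay. Rpl7l1 ran from 9.09 over 9.19 to 9.32 in short days and from 9.29 over 9.40 to 9.49 in long days. The regimes overlapped only at the edge, and it rose by 0.18 ± 0.03 (adjusted p = 1.54e-05), with 0.05 in advance (adjusted p = 0.215) and -0.05 in delay (adjusted p = 0.166). Its other probe sets did not share this rise: one fell by 0.15 in long days (limma adjusted p = 0.00126), one was at -0.05 (adjusted p = 0.397), and the mean of all its probe sets was at -0.006.

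Rps4l, a relative of the 40S gene Rps4x, was the most variable in short days, from 8.26 over 9.0 to 9.49. It ran from 8.44 over 8.69 to 8.93 in long days, from 8.27 over 8.45 to 8.64 in advance and from 8.35 over 8.62 to 8.80 in delay, all inside the short-day range. It changed by -0.22 ± 0.07 in long days (limma adjusted p = 0.0108), -0.47 in advance and -0.31 in delay. Rpl22l1, the paralog of Rpl22, had medians of 13.44, 13.50, 13.45 and 13.47 in short days, long days, advance and delay, and passed no contrast (long minus short days 0.06 ± 0.04, limma adjusted p = 0.147). Rpl39l and Rpl3l, the latter a muscle form of Rpl3, were dim, with means of 4.83 and 4.49 below the lower quartile of all genes at 5.42. Their long minus short changes were 0.03 ± 0.05 and 0.03 ± 0.05 (limma adjusted p = 0.615 and 0.722). Rps16 was dim as well (4.07), so its fall of 0.13 in long days (limma adjusted p = 0.0411) is a difference near the detection limit.

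Daily variation asks whether the level depends on ZT within a regime. By limma's F test 9 of the 50 genes varied with ZT in short days, where 8.91% of all genes passed, and 26 had an unadjusted p under 0.05. None passed in long days (unadjusted 1; 1.63% of all genes passed), advance (unadjusted 3; 2.58%) or delay (unadjusted 2; 1.52%). The courses of long and short days differed in 0 of the 50 genes (limma, unadjusted 6; 4.30% of all genes), and those of advance and delay in 0 (unadjusted 1; 0.726%). A difference in daily variation between the regimes was not shown.

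In short days most of the genes were highest early in the light phase and lowest at ZT12, 4 h into darkness, on the deposited scale. The same held after centring on the median gene (37 lowest at ZT12), but relative to mitochondrial ribosomal protein genes 9 were lowest there. For the centred and the relative values the share of all genes lowest at ZT12 is not given. On the deposited scale the mean deviation of the 50 genes was 0.19 at ZT0, 0.21 at ZT4, 0.07 at ZT8, -0.03 at ZT12, 0.04 at ZT16 and 0.14 at ZT20. The lowest group mean was at ZT12 for 39 genes, against 27.4% of all genes, and the highest at ZT4 for 31 (24.6%) and at ZT0 for 14 (18.95%). Rplp0 went from 12.10 at ZT4 to 11.55 at ZT12 (limma adjusted p = 0.0136), Rpl4 from 13.61 to 12.99 (adjusted p = 0.0161), and Rps4l from 9.21 to 8.45 (adjusted p = 0.0179). Rpsa went from 13.74 at ZT0 to 13.25 at ZT12 (adjusted p = 0.0162). The others were Rps10, Rpl7, Rpl19, Rpl14 and Rpl10a (limma adjusted p from 0.0364 to 0.0470).

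These counts rested on single arrays. At ZT4 the short-day arrays of Rpl4 were at 13.93 and 13.28, and at ZT12 at 13.06 and 12.91. The ZT4 arrays differed from each other by more than the lower of them did from the ZT12 arrays. Of the 50 genes, 0 varied without short ZT12 replicate 2, 2 without ZT4 replicate 1, 4 without ZT0 replicate 2, 5 without ZT20 replicate 2, 15 without ZT8 replicate 2, 18 without ZT8 replicate 1 and 28 without ZT4 replicate 2. With the replicate number as a block within each regime 17 passed. With the short-day arrays fitted alone 0 passed, and after centring on the median gene 1 did.

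The steps across the first hours of added light gave no calls. From ZT16 to ZT20 in advance minus short days 0 genes passed by limma (unadjusted 1; 0.220% of all genes), with a median log2 change of -0.12 against -0.06 over all genes. From ZT8 to ZT12 in delay minus short days 0 passed (unadjusted 2; 0.0385%), with a median of 0.18 against 0.05, and 8% of the genes were below 0 against 39.3% of all genes. The mean deviation of the 50 genes went from 0.07 to -0.03 in the short-day arrays over this step and from -0.11 to -0.04 in the delay arrays.

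**Figure D5:**
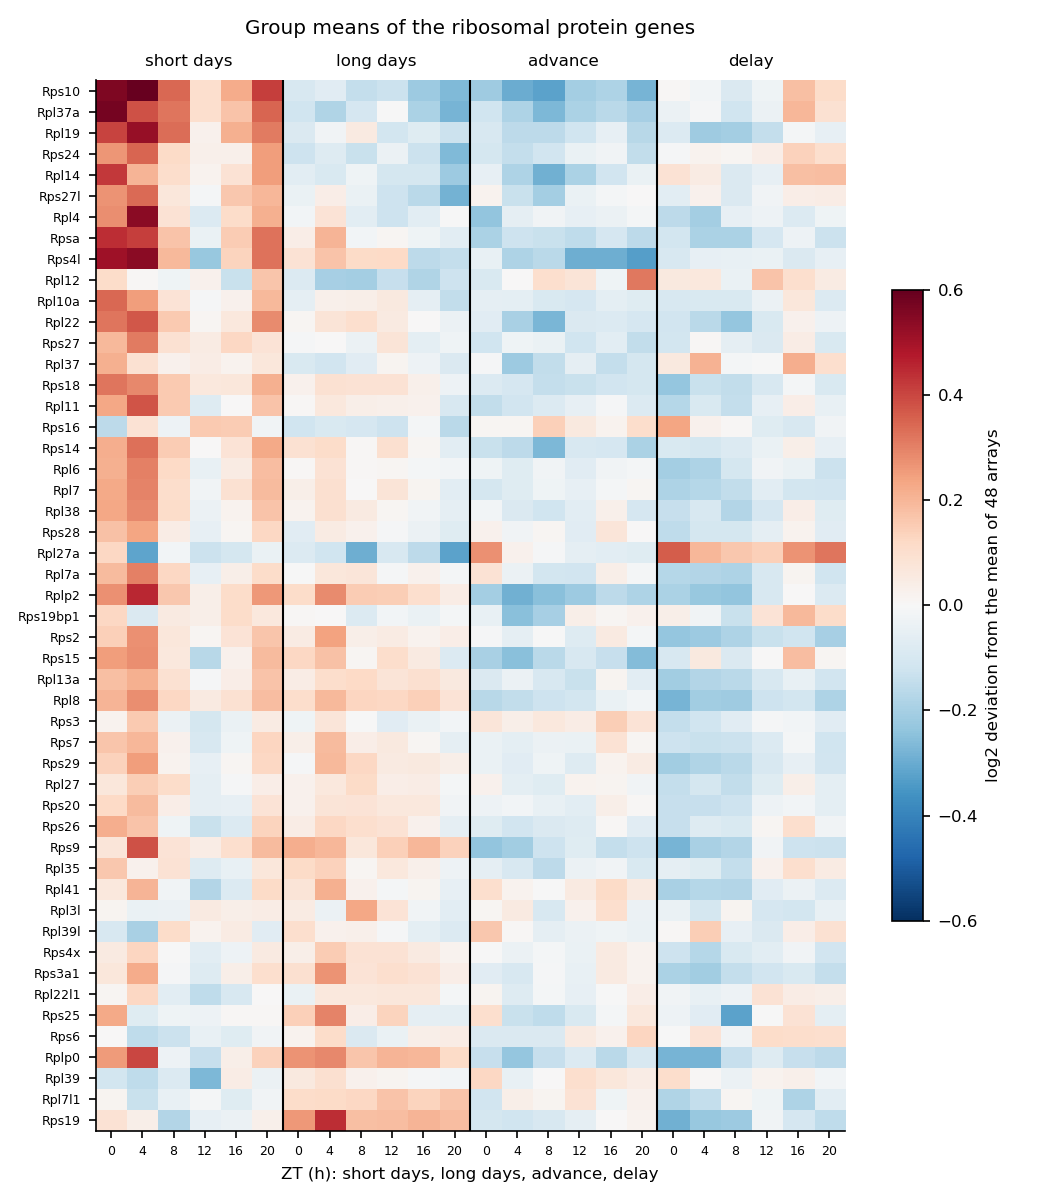
Group means of the 50 genes at 6 ZT (hours) in the 4 regimes, as log2 deviation from each gene's 48-array mean. The short-day columns are high at ZT0 and ZT4 and lowest at ZT12 for 39 genes, and the delay columns are low at ZT0 to ZT8. Relative to mitochondrial ribosomal protein genes 9 are lowest at ZT12 in short days, and the share of all genes lowest there is not given. On that scale 12 fell and 14 rose in first-day arrays ahead of the light, against 8.62% and 68.15% of all genes. Rps19 and Rpl27a stand out with highs in long days and delay.

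Other probe sets of the same genes were read as a check of the chosen ones. For 24 genes there were 56 further probe sets, and 42 had the sign of the chosen one in long minus short days, 47 in advance minus delay, 42 in advance minus short days and 39 in delay minus short days. All 6 probe sets of Rps10 were lower in long days, from -0.61 to -0.26, and the others of Rps27l were at -0.30 and -0.22. The other probe sets of Rpl37a were at -0.04 and -0.09 (limma adjusted p = 0.694 and 0.166), those of Rpl7l1 at -0.05 and -0.15, and another of Rps24 at 0.13, against the chosen ones. Rps3, at -0.02 in long days, had another probe set at -0.61 (limma adjusted p = 6.67e-12). The 110 probe sets that share a ribosomal protein symbol with another symbol were lower in 37 and higher in 18 in long days, lower in 64 and higher in 12 in advance, and lower in 74 and higher in 11 in delay. Over all probe sets 20.5% were lower and 19.1% higher in long days, 23.5% and 20.9% in advance, and 23% and 22.2% in delay.

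Other genes of the translation machinery were read from lists by role, against the shares of all genes given above (in long days 29.1% lower and 17.6% higher, in advance 29.3% and 22.2%, in delay 26.0% and 23.8%). The shares of several short lists lie near these. Of 76 mitochondrial ribosomal protein genes, which serve a different ribosome, 46 fell and 4 rose in long days (median -0.15), 56 fell and 4 rose in advance, and 49 fell and 5 rose in delay. All 4 genes for ribosome-associated proteins fell in each of the 3: in long days Fau, which carries ribosomal protein S30 as a fusion, was at -0.20, Naca of the nascent-chain complex at -0.33, its partner Btf3 at -0.20 and Tpt1 at -0.13. Of 7 elongation factor genes 3 fell and 1 rose in long days, the rise being of Eef1a1 (0.14). Initiation factor genes moved both ways, with 10 of 24 lower and 8 higher in long days, from Eif3l at -0.47 to Eif3a at 0.45. In delay 14 fell and 3 rose. Of 39 ribosome biogenesis genes 11 fell and 8 rose in long days (Mybbp1a -0.36) and 19 fell and 6 rose in delay (Nop58 -0.75, Fbl -0.52). Of 13 genes of RNA polymerase I, which makes ribosomal RNA, 7 fell and 3 rose in long days. Of 18 genes of mTOR signalling, of control of mRNAs with the tract and of Myc factors, 7 fell and 4 rose in long days. Rptor of mTOR complex 1 was at -0.44 and Rictor of complex 2 at 0.62. The other rises were of Tia1, Tial1 and Max.

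Markers of other cells in the punch moved with the regime too. Of 8 tanycyte and ependymal markers, cells that line the neighbouring ventricle, 7 fell in long days (median -0.45), 8 in advance and 5 in delay, where 1 rose. Their mean level ranged from 9.15 to 9.71 in short days, from 8.81 to 9.05 in long days, from 8.91 to 9.11 in advance and from 9.04 to 9.37 in delay, and none of the 8 was below the lower quartile of genes. Of 6 markers of the pars tuberalis itself, 4 rose in long days: Tshb by 3.56, Mtnr1a by 0.905, Eya3 by 0.902 and Chga by 0.26. Cga (0.03) and Chgb (-0.08) did not pass (limma adjusted p = 0.677 and 0.107). None of the 6 was dim, and their mean level was 11.48 in short days, 12.42 in long days, 12.11 in advance and 11.74 in delay. This mean holds the large change of Tshb, so it does not measure the amount of pars tuberalis cells. Of 7 neuronal markers 3 rose and 2 fell in long days, of 7 glial markers 2 rose and 3 fell, of 5 endothelial and blood markers 2 fell (Cdh5 and Plvap), and of 7 pars distalis markers 1 rose and 3 fell. The part of these cells in the ribosomal protein values was not tested.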

How the data were processed

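Per the submitters' processing notes, the authors summarised each Affymetrix array with RMA in R 2.8.0, and the deposited values are on a log2 scale. RMA fixes the spread of all probe sets on each array, so values are relative to the other genes. Probe sets were named through the platform annotation: of 45101, 34958 have 1 symbol, 932 several and 9211 none. Control probe sets were kept out of the gene table. limma 3.58.1 in R 4.3.3 was fitted to 18193 genes with 1 mean for each of 24 groups and a trended prior (24 residual degrees of freedom), and 13 comparisons were adjusted by Benjamini-Hochberg within each. The number of arrays limits the precision. All 50 genes matched RefSeq identifiers. No arrays held identical values. Members, lists and naming rules were chosen with earlier results of these data known. Named were the stalk genes, Rpsa and the paralogs, the 10 largest changes each way with one sign at every time point, the 10 smallest p in F tests, and up to 4 per list; Rpl39, Rps16 and the genes of the probe set check and array separation were added after their values were seen. Same-numbered arrays were not treated as pairs. Alternatives were scaling, RNA quality covariates, probe set choice, a replicate block, and single arrays or times left out.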

Additional observations from a re-analysis of the deposited data

How the results depend on the processing

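Counts of the 50 genes kept within 1.5 times of those reported in 217 results computed under alternatives; 47 moved further and 1 reversed. Averaging all probe sets of a gene gave 5 rises in advance minus delay, 4 genes varying in short days and 1 with a different course in long and short days. Without probe sets ending in _x_at or _s_at, 2 rose in advance minus short days and 1 had a different course. Centring on the median gene gave 10 rises and 10 falls in long days, 16 rises in advance minus delay, 5 rises in advance minus short days and 1 gene varying in short days. After centring 28.68% of all genes rose and 19.53% fell in long days. In advance minus delay 13.83% of all genes rose, and in advance minus short days 30.2%. The actin covariate gave 6 falls in long days, 4 falls in advance minus delay, 20 falls and 0 rises in advance minus short days, 1 rise ahead of the light and 15 genes varying in short days. With it the share of all genes that fell was 16.2% in long days, 4.86% in advance minus delay and 21.9% in advance minus short days. The GAPDH covariate gave 1 rise in delay, 0 rises ahead of the light and 5 varying. Both covariates, chosen after seeing the data as were the next 4 settings, gave 7 falls in long days, 2 falls in advance minus delay, 20 falls and 0 rises in advance minus short days, 0 rises ahead of the light and 14 varying. Without ZT0 and ZT4, 9 fell in long days, 3 rose in advance minus delay, 2 rose in advance minus short days and 19 fell in delay. Shares of all genes without these times are not given. Relative to mitochondrial ribosomal protein genes, 22 rose and 8 fell in long days, 17 rose in advance minus delay, 24 rose and 10 fell in advance, 13 rose and 17 fell in delay, and 14 rose and 12 fell ahead of the light. The shares of all genes that rose in these comparisons were, in turn, 42.25%, 13.81%, 69.59%, 65.87% and 68.15%. Without long ZT16 and ZT20 replicate 2, 2 rose in long days and 2 had a different course. With all probe sets fitted, and likewise without the trended prior, 4 varied in short days; with only the compared regimes fitted, 0 did and 2 varied in advance. The replicate number as a block gave 2 rises in advance minus short days and 11 genes varying in short days, and a block within each regime gave 2 and 17; same-numbered arrays deviated together with a median correlation of 0.05 over 276 pairs (98 above 0.1), and within regimes of 0.03 in short days, 0.24 in long days (14 of 15 pairs above 0.1), 0.07 in advance and 0.27 in delay (11 of 15). Not every pair was above 0.1 in any regime, so the numbers are not taken as pairs.

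Leaving out one array at a time gave 3 to 6 rises and 18 to 24 falls in long days, 1 to 2 rises (2 without short ZT4 replicate 1, ZT4 replicate 2 or ZT8 replicate 1) and 29 to 36 falls in advance minus short days, 2 to 3 rises and 34 to 37 falls in delay, 1 to 3 rises and 32 to 39 falls ahead of the light (1 rise without delay ZT4 replicate 1 or delay ZT8 replicate 2), 5 to 10 rises and 7 to 10 falls in advance minus delay, 0 to 28 genes varying in short days, and 0 to 3 with a different course in long and short days (3 without short ZT4 replicate 2, 2 without long ZT20 replicate 2, 1 without short ZT0 replicate 1). The actin difference between long and short days ranged from -0.27 to -0.21 and that of GAPDH from -0.18 to -0.10; read as 3′ minus middle, the actin difference was 0.054, so its direction turned. Among single genes 872 values kept their call, 96 lost it and 7 reversed: with all probe sets averaged Rpl7l1 (-0.006 in long days, -0.025 in advance minus delay) and Rps4x (-0.006), without _x_at and _s_at probe sets Rps24 (0.13 and 0.12), and with actin as covariate, alone or with GAPDH, Rps6 (-0.014 in both). The cause of these shifts was not tested.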
